A study of Mus musculus with 8 samples.

Results

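The basic leucine zipper transcription factors of the AP-1 family and its close relatives were followed in mouse peritoneal macrophages with and without IFNγ and with and without the Fc receptor γ chain. The 10 genes Batf, Batf2, Batf3, Atf3, Fos, Fosb, Fosl2, Jun, Junb and Jund were looked up by symbol in the annotation of the probes, and every probe carrying one of these symbols was taken. The annotation named 1 probe for each of 9 genes, which made 9 of the 25697 probes and 9 of the 16593 genes measured. No probe was named for Fosl2, which is not analysed here.

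AP-1 is a dimer of basic leucine zipper proteins in which a JUN protein (JUN, JUNB or JUND) joins a FOS protein (FOS, FOSB, FOSL1 or FOSL2), an ATF or a BATF protein, and binds short palindromic DNA sites. JUN and FOS are immediate early genes that mitogen-activated protein kinases switch on. ATF3 is a stress-induced factor known in macrophages as a brake on genes induced through Toll-like receptors. BATF proteins lack the activation domain of FOS and work with JUN proteins and interferon regulatory factors at composite sites. BATF2 is known as an IFNγ-induced factor of macrophages that acts with IRF1, and BATF3 is best known for its need in the cross-presenting dendritic cell.

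The series holds 8 Illumina bead arrays (MouseRef-8 v2.0) of macrophage RNA, 2 for each of 4 groups. The macrophages came from naive C57BL/6 mice, were kept overnight in M-CSF-containing L929-conditioned medium, and were washed free of cells that did not attach. The groups were FcgKO macrophages, which lack the Fc receptor γ chain, with IFNγ at 10 ng/ml for 6 h, FcgKO macrophages without IFNγ, WT macrophages with the same IFNγ treatment, and WT macrophages without it. The knockout is labelled by genotype alone. Whether the 2 samples of a group were separate animals or separate wells is not in the labels, and the p-values speak for the spread of these arrays alone, which could be technical, and precision is limited by their number.

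Fcer1g, the gene of the γ chain, matched the labels. Its deposited intensity was 106.7 and 98.5 in FcgKO samples with IFNγ, 95.7 and 95.6 in FcgKO samples without it, 16987 and 18350 in WT samples with IFNγ, and 17567 and 18350 in WT samples without it. Array medians lay between 102.98 and 103.02, and replicates correlated across probes, which are not independent replicates, with r between 0.9955 and 0.9966. Of the macrophage markers, 7 were measured and 0 lay at or under the array median on all arrays, while 3 of 3 eosinophil markers, 4 of 5 mesothelial markers and 3 of 7 conventional dendritic cell markers (Flt3, Xcr1 and Cd209a) did.

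Promoter sequence before the transcription start was matched by symbol for 9 of the 10 genes, all but Batf2, in the RefSeq table (GRCm38.p6). The stretches shown are those of the 5 matched genes that rose with IFNγ in at least 1 genotype, read 5′ to 3′ on the strand of the gene. They are the 200 bases before the start of Jun (chr4:95052223-95052422, minus strand), the 150 bases before the starts of Fos (chr12:85473740-85473889, plus strand), Atf3 (chr1:191183334-191183483, minus strand) and Batf (chr12:85686570-85686719, plus strand), and, for Batf3, the first 100 of the 250 bases before the start (chr1:191098164-191098263, plus strand). Capitals mark the letters of the motifs searched.
Jun: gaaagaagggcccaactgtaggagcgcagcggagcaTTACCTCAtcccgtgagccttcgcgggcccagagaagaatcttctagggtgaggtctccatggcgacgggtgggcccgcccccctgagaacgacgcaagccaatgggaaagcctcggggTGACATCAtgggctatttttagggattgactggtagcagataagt
Fos: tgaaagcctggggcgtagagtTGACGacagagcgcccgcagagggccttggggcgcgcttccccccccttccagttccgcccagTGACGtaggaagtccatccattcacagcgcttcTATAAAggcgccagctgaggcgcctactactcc
Atf3: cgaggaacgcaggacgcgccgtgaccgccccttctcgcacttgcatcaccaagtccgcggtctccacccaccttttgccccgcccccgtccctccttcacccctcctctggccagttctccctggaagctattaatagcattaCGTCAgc
Batf: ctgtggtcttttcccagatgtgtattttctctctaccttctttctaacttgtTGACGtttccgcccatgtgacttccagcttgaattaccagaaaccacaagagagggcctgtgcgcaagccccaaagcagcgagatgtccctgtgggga
Batf3: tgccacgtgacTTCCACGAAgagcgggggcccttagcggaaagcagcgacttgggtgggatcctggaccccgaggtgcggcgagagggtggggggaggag

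The Jun promoter carried TTACCTCA 164 to 157 bases and TGACATCA 45 to 38 bases before its start, letters known from work on the human JUN promoter as sites that bind JUN and ATF dimers. They were searched for that reason, on both strands, and stood in 0.728% and 2.93% of 32851 promoter windows of 250 bases. TGACG, the core of the cAMP response element, stood on either strand in 17.8% of windows and in 5 of the 9 promoters matched, those of Atf3, Batf, Fos, Fosb and Junb. It lies within TGACGTCA, the full element, which stood in 1.55% of windows and in 0 of the 9. The AP-1 site TGANTCA stood in 6.75% of windows and in 0 of the 9.

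The letters of a STAT site, TTCNNNGAA, stood in 7.02% of windows and in the Batf3 promoter alone among the 9. GAAANNGAA, part of an interferon-stimulated response element, stood in 7.13% of windows and in the Fosl2 and Jund promoters, and TATAAA on the gene's strand stood in 7.59% of windows and in the Fos promoter. The motifs and stretches were chosen after the sequences had been seen, and a match describes letters, not a bound site.

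IFNγ raised Batf2 17.3-fold in FcgKO and 21.6-fold in WT macrophages, and it raised Atf3, Jun and Batf3 by smaller amounts in both. Batf and Fos rose with IFNγ in FcgKO macrophages and did not pass the test in WT macrophages, and no member fell. In FcgKO macrophages 6 of the 9 members were called higher and 0 lower, where 4.6% of all probes were called higher and 5.75% lower. In WT macrophages 4 of the 9 were called higher and 0 lower, where 4.97% of probes were called higher and 6.56% lower. A probe was called at an adjusted p below 0.05 (limma, Benjamini-Hochberg over all 25697 probes). Fold changes set means of the deposited intensity against each other, and log2 differences and their standard errors (SE) are those of the background-corrected values. Because the RNA is bulk, fewer cells of a type and less RNA per cell cannot be told apart in any of these values.

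**Figure D1:**
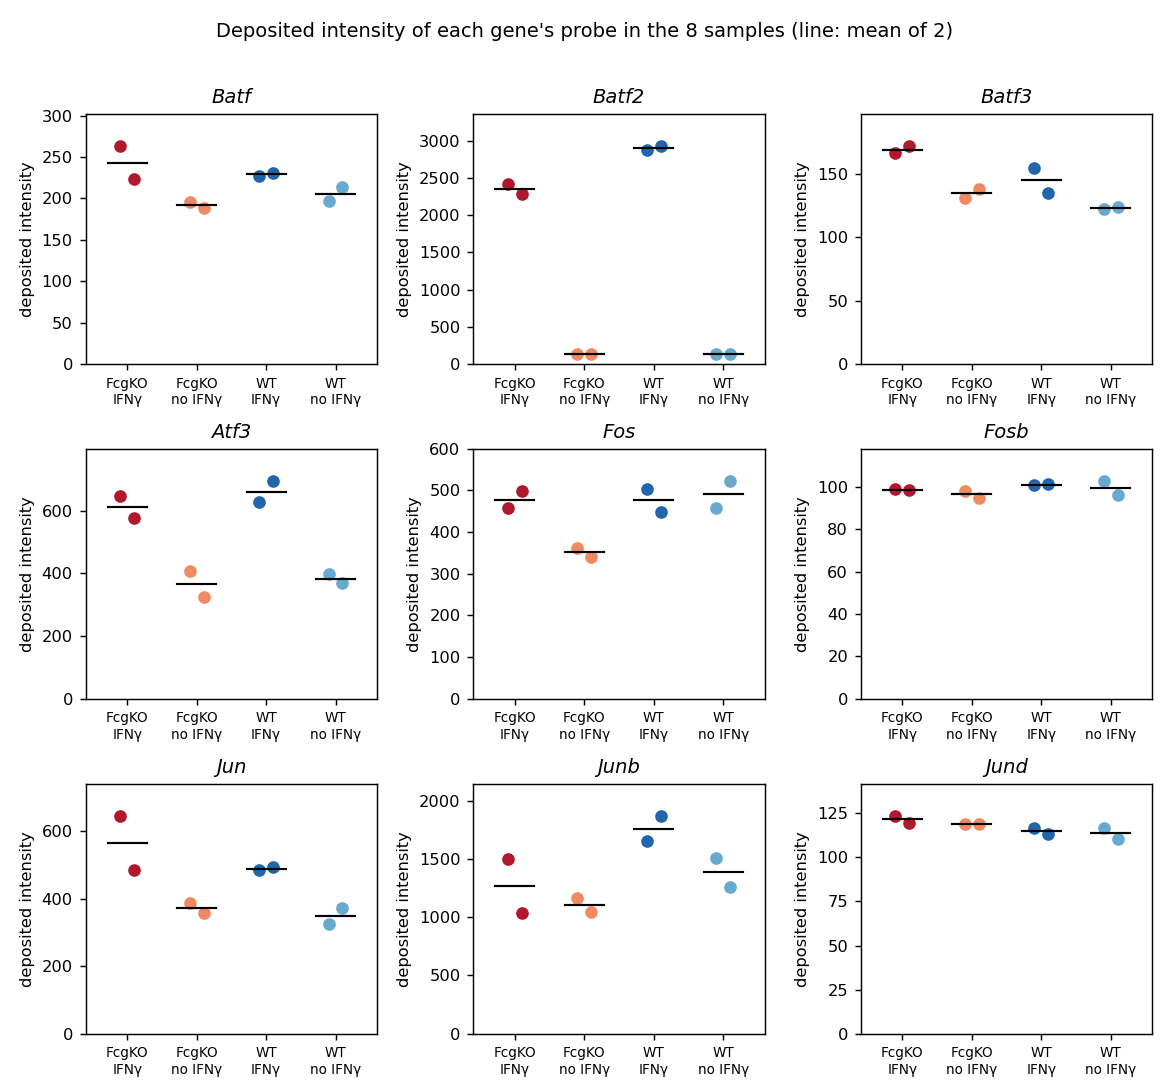
Deposited intensity of the 9 genes on each of the 8 arrays, with 1 panel per gene on a linear axis of its own that starts at 0, a point per array and the group mean as a line. Batf2 lies between 2286 and 2922 on the 4 arrays with IFNγ and between 133.1 and 137.3 on the 4 without it, and Fosb lies at or under the array median on 8 of 8 arrays.

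Among the BATF proteins, Batf2 (probe ILMN_1230143, chromosome 19) had an intensity of 2422 and 2286 in FcgKO samples with IFNγ and 134.5 and 137.3 in FcgKO samples without it. It had 2876 and 2922 in WT samples with IFNγ and 133.1 and 135.6 in WT samples without it. The samples with IFNγ stood far above those without it in both genotypes, and the samples without IFNγ overlapped between the genotypes. By deposited means the response was 17.3-fold in FcgKO macrophages and 21.6-fold in WT macrophages. The background-corrected log2 difference was 4.52 in FcgKO (SE 0.07, adjusted p = 5.8e-12) and 4.85 in WT (SE 0.07, adjusted p = 3.5e-12). It was 4.11 in FcgKO and 4.43 in WT without background correction, and 5.10 in FcgKO and 5.44 in WT with an offset of 16. The values without IFNγ lay not far over the array median, so the size of the response depends on the background setting. Ordered from the highest log2 difference, Batf2 was at place 15 of all probes in FcgKO and at place 10 in WT.

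Batf3 (probe ILMN_2930552, chromosome 1), the dendritic cell factor, had an intensity of 166.7 and 171.8 in FcgKO samples with IFNγ, 131.4 and 138.3 in FcgKO samples without it, 154.8 and 135.0 in WT samples with IFNγ, and 122.2 and 124.2 in WT samples without it. In each genotype the samples with IFNγ lay above those without it, at low levels not far over the array median. The log2 difference was 0.43 in FcgKO (SE 0.09, adjusted p = 0.0084) and 0.31 in WT (SE 0.09, adjusted p = 0.0416). The FcgKO call was lost without FcgKO replicate 1 without IFNγ or FcgKO replicate 2 with it, and the WT call in 7 of 14 alternatives, at an adjusted p of up to 0.328. The summed intensity of the 7 conventional dendritic cell markers was 694.2 to 709.3 in FcgKO samples with IFNγ, 697.2 to 705.6 in FcgKO samples without it, 727.5 to 730.3 in WT samples with IFNγ and 713.9 to 714.9 in WT samples without it, and 0 of the 7 was called with IFNγ in either genotype. Flt3, Xcr1 and Cd209a lay at or under the array median on 8 arrays, Clec9a on 7, and Zbtb46 and Itgae on 3 each. A sum so near the floor cannot show whether these cells changed.

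Batf (probe ILMN_2761900, chromosome 12), the founding member of this group and best known from T cells, had an intensity of 262.8 and 223.8 in FcgKO samples with IFNγ, 195.7 and 188.3 in FcgKO samples without it, 227.3 and 230.8 in WT samples with IFNγ, and 197.0 and 213.7 in WT samples without it. The samples with IFNγ were the higher ones in both genotypes, with no overlap. Batf rose in FcgKO by a log2 difference of 0.40 (SE 0.09, adjusted p = 0.0159), and its difference of 0.19 in WT did not pass the test (SE 0.09, adjusted p = 0.291). The FcgKO call was lost with a background offset of 16 and without FcgKO replicate 1 with IFNγ or either FcgKO replicate without it, at an adjusted p of up to 0.129.

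Atf3 (probe ILMN_2619408, chromosome 1) had an intensity of 646.7 and 577.5 in FcgKO samples with IFNγ, 408.8 and 324.6 in FcgKO samples without it, 627.2 and 693.1 in WT samples with IFNγ, and 398.1 and 367.6 in WT samples without it. All 4 samples with IFNγ lay above all 4 without it, and the genotypes overlapped in each condition. By deposited means Atf3 rose 1.67-fold in FcgKO and 1.72-fold in WT. The background-corrected log2 difference was 0.81 in FcgKO (SE 0.12, adjusted p = 0.00073) and 0.85 in WT (SE 0.12, adjusted p = 0.00046). Batf2 and Atf3 were the members that kept both IFNγ calls in all 14 alternative settings run.

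Of the FOS proteins, Fos (probe ILMN_2750515, chromosome 12) had an intensity of 458.1 and 497.6 in FcgKO samples with IFNγ and 361.8 and 341.0 in FcgKO samples without it. It had 503.5 and 449.1 in WT samples with IFNγ and 458.7 and 521.8 in WT samples without it. The 2 FcgKO samples without IFNγ were the lowest of the 8, and the other 6 overlapped. Fos rose with IFNγ in FcgKO by a log2 difference of 0.48 (SE 0.09, adjusted p = 0.0050), a call lost without FcgKO replicate 2 without IFNγ (adjusted p = 0.0579), and its log2 difference in WT was -0.04 (SE 0.09, adjusted p = 0.896). Fosb (probe ILMN_2778279, chromosome 7), a close relative of FOS that also makes a shortened form, lay between 94.7 and 102.6, at or under the array median on 8 of 8 arrays, so that its values are bounds and no fold is given.

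Of the JUN proteins, Jun (probe ILMN_2646625, chromosome 4) had an intensity of 643.5 and 484.3 in FcgKO samples with IFNγ, 385.6 and 358.0 in FcgKO samples without it, 484.1 and 492.3 in WT samples with IFNγ, and 323.8 and 371.2 in WT samples without it. All samples with IFNγ lay above all samples without it, and FcgKO replicate 1 with IFNγ stood above the other 3 treated samples. The log2 difference was 0.64 in FcgKO (SE 0.12, adjusted p = 0.0062) and 0.54 in WT (SE 0.12, adjusted p = 0.0147). The FcgKO call was lost without FcgKO replicate 2 without IFNγ (adjusted p = 0.0676). The WT call was lost without WT replicate 1 without IFNγ or either WT replicate with it, at an adjusted p of up to 0.109.

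Junb (probe ILMN_1220034, chromosome 8), which often restrains JUN and has its own immediate early induction, had an intensity of 1496 and 1037 in FcgKO samples with IFNγ, 1167 and 1046 in FcgKO samples without it, 1651 and 1867 in WT samples with IFNγ, and 1510 and 1261 in WT samples without it. The FcgKO samples with IFNγ overlapped those without it and stood farthest apart from each other of any pair for this gene, while in WT both treated samples lay above the untreated ones. Neither response passed the test, with a log2 difference of 0.18 in FcgKO (SE 0.15, adjusted p = 0.653) and 0.36 in WT (SE 0.15, adjusted p = 0.211). In WT it passed at an adjusted p of 0.0499 when either FcgKO replicate with IFNγ was left out, which changes only the estimate of the spread. Jund (probe ILMN_2682788, chromosome 8), the JUN protein with steady expression in most cells, had 123.3 and 119.6 in FcgKO samples with IFNγ, 118.9 and 119.1 in FcgKO samples without it, 116.4 and 113.5 in WT samples with IFNγ, and 116.8 and 110.5 in WT samples without it. It lay just above the array median on all arrays and was called in neither genotype.

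**Figure D2:**
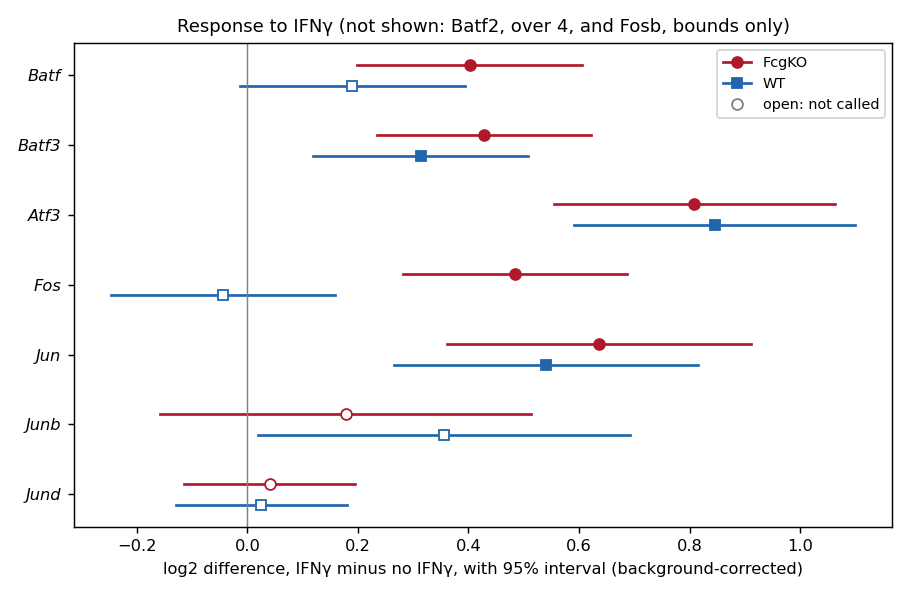
Log2 difference with IFNγ minus without for 7 of the genes, FcgKO above WT, with bars for the 95% confidence interval of the limma fit and filled points for calls. Batf2, at 4.52 in FcgKO and 4.85 in WT, and Fosb are not drawn, and all filled points lie above 0, with Atf3 highest at 0.81 in FcgKO and 0.85 in WT.

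Without IFNγ, FcgKO macrophages had less Fos than WT macrophages, and no other member differed past the threshold. One member of 9 was called lower and 0 higher, where 0.479% of all probes were called lower and 0.245% higher. Fos averaged 351.4 ± 14.7 in FcgKO samples and 490.2 ± 44.7 in WT samples (SD, n = 2 each), and was 1.40-fold higher in WT, with a log2 difference of -0.52 (SE 0.09, adjusted p = 0.0268). The call rested on a few choices: it was lost without background correction, with an offset of 16 and without either FcgKO replicate or WT replicate 2, at an adjusted p of up to 0.243. Junb averaged 1106 ± 85.2 in FcgKO samples and 1385 ± 175.6 in WT samples without IFNγ, with both WT samples above both FcgKO samples, and did not pass the test (log2 difference -0.33, SE 0.15, adjusted p = 0.658).

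With IFNγ, Batf2 reached a lower level in FcgKO macrophages, 2354 ± 95.6, than in WT macrophages, 2899 ± 32.0 (SD, n = 2 each). It was the one member of 9 called lower, with 0 called higher, where 1.47% of all probes were called lower and 1.13% higher. Batf2 was 1.23-fold higher in WT, with a log2 difference of -0.31 (SE 0.07, adjusted p = 0.0385). This call was lost in 9 of 14 alternatives, among them an offset of 16, the limit to probes above the median mean, a prior that follows intensity, and leaving out either replicate of FcgKO with IFNγ, of FcgKO without IFNγ or of WT with IFNγ, at an adjusted p of up to 0.368.

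On the log2 scale, Junb had the largest difference of the 9 in size with IFNγ, and it did not pass the test (log2 difference -0.51, SE 0.15, adjusted p = 0.144). Its intensity was 1267 ± 324.4 in FcgKO samples and 1759 ± 153.1 in WT samples, with both WT samples above both FcgKO samples. Without FcgKO replicate 1 with IFNγ the log2 difference was -0.78 and was called (adjusted p = 0.0077). Batf3 was higher in FcgKO with IFNγ by a log2 difference of 0.29 that did not pass the test (SE 0.09, adjusted p = 0.144), and Atf3, Fos, Jun and Batf overlapped between the genotypes there.

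Mast cell markers were lower in FcgKO cultures. Of 5 measured, 5 were called lower in FcgKO than in WT with IFNγ and 3 without it. Without IFNγ the Fcer1a call was lost in 4 of 14 alternatives, the Cpa3 call in 1 and the Cma1 call in 0. Of 7 macrophage markers, 2 were called lower in FcgKO with IFNγ, Timd4 (log2 difference -0.85) and Mertk (-0.71), and 1 without it, Timd4 (-0.99). Each Timd4 call was lost in 7 of 14 alternatives and the Mertk call in 2. In either condition 0 of 4 neutrophil and 0 of 4 B cell markers were called. Of all probes, 1.47% were called lower with IFNγ and 0.479% without it. The summed intensity of the 5 mast cell markers (Cpa3, Cma1, Mcpt4, Tpsb2 and Fcer1a) was 1040 to 1285 in FcgKO samples with IFNγ against 2147 to 2239 in WT samples with it. Without IFNγ it was 1075 to 1207 in FcgKO samples against 1879 to 2088 in WT samples. The 4 neutrophil markers summed to 2772 to 3188 in FcgKO against 3961 to 4249 in WT with IFNγ, and to 2354 to 2478 in FcgKO against 2829 to 3736 in WT without it, and nearly all of that sum is S100a8, since S100a9 lay at or under the array median on 6 of 8 arrays, Camp on 3 and Ngp on 8. The 4 B cell markers summed to 1179 to 1499 in FcgKO against 1470 to 2202 in WT with IFNγ, and to 1277 to 1766 against 1582 to 2362 without it, so that the genotypes overlapped, and Pax5 lay at or under the array median on 8 of 8 arrays. The part of these cells in the Fos, Batf2 and Junb values was not tested.

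**Figure D3:**
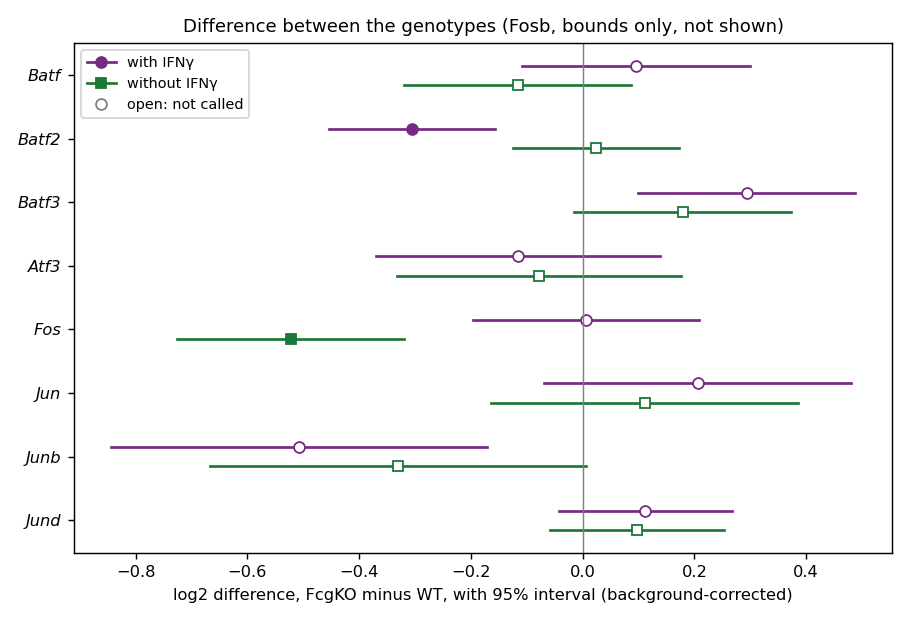
Log2 difference FcgKO minus WT for 8 of the genes, all but Fosb, with IFNγ above without IFNγ, with bars for the 95% confidence interval of the limma fit and filled points for calls. Fos without IFNγ, at -0.52, and Batf2 with IFNγ, at -0.31, are the 2 calls, and Junb lies below 0 in both conditions.

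The difference of the IFNγ responses between the genotypes was tested directly, and 0 of the 9 members were called, where 0.0428% of all probes were called in either direction. Of the 9, Fos and Batf2 had the lowest unadjusted p, 0.0019 and 0.0055 by limma. The Fos response was higher in FcgKO than in WT by 0.53 on the log2 scale (95% interval 0.24 to 0.82, adjusted p = 0.351 by limma), and the Batf2 response was lower in FcgKO by a log2 difference of -0.33 (95% interval -0.54 to -0.12, adjusted p = 0.492 by limma). The IFNγ calls of Fos and Batf in FcgKO are therefore not shown to differ from the WT responses. For Atf3 the difference of responses was -0.04 (95% interval -0.40 to 0.32), for Jun 0.10 (-0.29 to 0.48), for Batf3 0.11 (-0.16 to 0.39) and for Batf 0.21 (-0.08 to 0.50).

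Other basic leucine zipper genes were read from a list of 25 relatives and partners, of which 20 were measured, 2 of them at or under the array median on all arrays. For this and the following lists the shares of all probes called are those given above, 4.6% higher and 5.75% lower with IFNγ in FcgKO and 4.97% higher and 6.56% lower in WT. For FcgKO against WT they are 1.13% higher and 1.47% lower with IFNγ, and 0.245% higher and 0.479% lower without it. With IFNγ 4 were called higher and 2 lower in FcgKO, and 4 higher and 2 lower in WT, with a median log2 difference of -0.09 in FcgKO and 0.08 in WT, beside -0.01 over all probes in both. Jdp2, a partner and repressor of JUN, rose by a log2 difference of 2.01 in FcgKO (SE 0.11, adjusted p = 3.7e-07) and 1.16 in WT (SE 0.11, adjusted p = 3.0e-05), and with IFNγ it was higher in FcgKO by 0.92 (SE 0.11, adjusted p = 0.00101). Its difference of responses, 0.84, did not pass the test (SE 0.16, adjusted p = 0.133). Crem, a cAMP-responsive factor, rose by 1.02 in FcgKO and 1.45 in WT on the log2 scale (SE 0.11 each).

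Atf5, a stress-responsive factor, had a log2 difference of -0.61 in FcgKO and -0.45 in WT and was called lower in both. Mafg, a small MAF protein, was called lower in FcgKO at -0.46 and was not called in WT, at -0.09. Maff, another small MAF protein, was called higher in both, at 0.33 in FcgKO and 0.54 in WT, the FcgKO call being lost in 8 of 14 alternatives. Cebpa, a myeloid lineage factor, was called lower in WT at -0.53 and was not called in FcgKO, at -0.23. The difference of responses did not pass the test for Mafg (adjusted p = 0.499 by limma) or Cebpa (adjusted p = 0.778 by limma). The WT calls of Cebpa and Atf5 were lost in 2 and in 1 of 14 alternatives. Between the genotypes 0 relatives were called without IFNγ, and with it 1 was called higher, Jdp2, and 3 lower in FcgKO, Nfe2l2 (-0.47), Cebpb (-0.42) and Mafg (-0.38). Alternatives ended the genotype calls of Nfe2l2 in 6 cases, of Cebpb in 4 and of Mafg in 8, and that of Jdp2 in 0. The count of 4 was 1 with an offset of 16, and 1 or 2 without either replicate of FcgKO or WT with IFNγ.

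**Figure D4:**
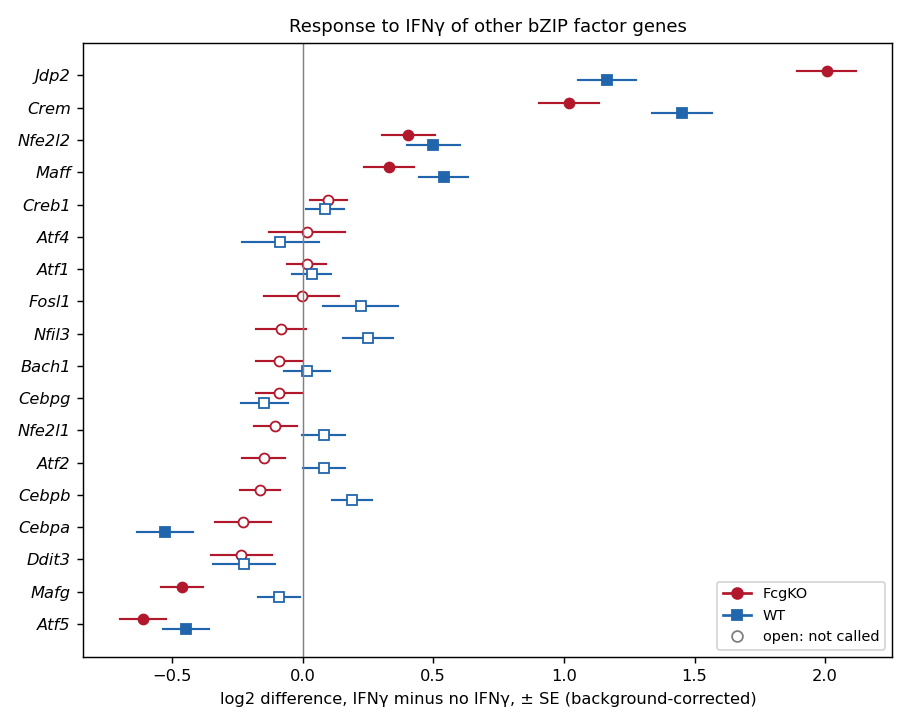
Log2 difference with IFNγ minus without for the 18 relatives and partners of the AP-1 factors that lay above the array median on at least 1 array, FcgKO above WT, with bars for ± SE and filled points for calls. Jdp2 (2.01 in FcgKO and 1.16 in WT) and Crem (1.02 in FcgKO and 1.45 in WT) stand apart on the side of higher values.

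Of 21 kinases and factors upstream of AP-1, 16 were measured, and IFNγ changed 3 to higher and 4 to lower levels in FcgKO, and 4 to higher and 1 to lower levels in WT. Mapk9, the kinase JNK2 that phosphorylates JUN, rose by 0.78 in FcgKO and 0.70 in WT on the log2 scale, and Map2k1, the kinase MEK1, by 0.41 in FcgKO and 0.48 in WT. Map3k8, a kinase that feeds the ERK cascade, rose by 0.57 in FcgKO and 0.31 in WT, and Mapk14, the p38α kinase, was called lower in both, at -0.27 in FcgKO and -0.51 in WT. The WT call of Map3k8 was lost in 8 of 14 alternatives and the FcgKO call of Mapk14 in 6. The Map2k1 call was lost in 3 of 14 alternatives in FcgKO and in 1 in WT. The FcgKO count of 7 was 3 without either FcgKO replicate without IFNγ and 4 without FcgKO replicate 2 with it or with an offset of 16, and the WT count of 5 was 3 without WT replicate 2 with IFNγ. The median over the 16 was 0.03 in FcgKO and 0.01 in WT.

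The IFNγ pathway and the IRF partners of BATF proteins had 10 of 11 genes measured, with 6 called higher and 1 lower in FcgKO, and 5 higher and 1 lower in WT. Irf1, the partner of BATF2, rose by 3.94 in FcgKO (SE 0.10) and 3.61 in WT (SE 0.10) on the log2 scale, and Irf8, a partner of BATF3, by 1.26 in FcgKO and 1.43 in WT. Between the genotypes 0 of the 10 were called in either condition. The medians, 0.62 in FcgKO and 0.60 in WT, stood beside -0.01 over all probes.

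Of 14 other immediate early genes, all measured and 4 of them at or under the array median on all arrays, 1 was called higher and 1 lower with IFNγ in FcgKO, and 3 higher and 2 lower in WT. The FcgKO count of 2 was 1 without FcgKO replicate 1 without IFNγ or FcgKO replicate 2 with it, and 4 without either WT replicate without IFNγ. The WT count of 5 was 0 without WT replicate 1 with IFNγ, and 1 without WT replicate 2 with or without it. In settings that kept all arrays the counts were 1 to 4 in FcgKO and 2 to 5 in WT. With IFNγ 4 were called lower in FcgKO than in WT and 0 higher, Egr2 (log2 difference -0.97, SE 0.08), Dusp1, a MAP kinase phosphatase (-0.77, SE 0.16), Ier3 (-0.76, SE 0.10) and Klf6 (-0.41, SE 0.09). Without IFNγ 1 of the 14 was called, Egr2, lower in FcgKO at -0.56 (SE 0.08). The Klf6 call was lost in 11 of 14 alternatives and the Dusp1 genotype call in 4. The Egr2 call without IFNγ was lost in 2 (an offset of 16, and without FcgKO replicate 1 without IFNγ). The count of 4 was 2 without background correction. It was also lower without either WT replicate or FcgKO replicate 2 with IFNγ.

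Of 17 known AP-1 target genes 15 were measured, and with IFNγ 5 were called higher and 4 lower in FcgKO, and 4 higher and 4 lower in WT. Tnf rose by 2.20 in FcgKO and 2.32 in WT on the log2 scale, while Cxcl2, a neutrophil chemokine, was called lower in both, with log2 differences of -2.26 in FcgKO and -1.86 in WT. Between the genotypes Mmp9, a gelatinase, was lower in FcgKO by a log2 difference of -2.13 with IFNγ and -2.13 without it. In all, 2 targets were higher and 5 lower in FcgKO with IFNγ, and 2 higher and 2 lower without it, and Ccl2, a monocyte chemokine, was 1 of the higher ones, at 1.80 with IFNγ. Dusp1 stands both in this list and in that of other immediate early genes, and its calls are counted in each. Without IFNγ the calls of Plau (urokinase), Tnf and Ccl2 were lost in 6, 4 and 5 of 14 alternatives. The count of 4 there was 1 without background correction and reached 6 in other settings that kept all arrays. It was also lower without either FcgKO replicate or either WT replicate with IFNγ. With IFNγ the count of 7 was 4 without either WT replicate, and the WT count of 8 for the response was 5 without WT replicate 1 with IFNγ.

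Of 7 genes reported as repressed by ATF3, 6 were measured. IFNγ raised 3 of them in FcgKO and 4 in WT and lowered 0, with Tnf, which stands in both lists, as above and Ch25h, which makes an antiviral oxysterol, at a log2 difference of 1.36 in FcgKO and 1.49 in WT. With IFNγ 3 were lower in FcgKO than in WT, Tnf (-1.05), Ccl4 (-1.02) and Nos2 (-0.84), of which the Ccl4 and Nos2 calls were each lost in 5 alternatives. The count of 3 was 1 without background correction. It was also lower without either FcgKO replicate without IFNγ or WT replicate 2 with it.

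For the members that spanned at least 1 on the log2 scale over the 8 arrays, the 3 genes whose centred log2 values lay closest were found among 16584 other genes by root mean square difference. For Batf2 they were Igtp (0.140), an immunity-related GTPase and Gbp3 (0.166), a guanylate-binding protein. Calhm6 came next, but its mean of 98.1 in FcgKO samples without IFNγ lay under the array median, so its distance is not given. For Atf3 they were Triobp (0.106), Casp2 (0.107) and Nuak2 (0.110), and for Jun they were Bak1 (0.076), B4galt3 (0.101) and Creb3 (0.112).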

How the data were processed

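Expression was measured on 8 bead arrays, with group and replicate number taken from the sample titles. The values used were the deposited linear intensities, 82.1 to 22479. After sorting, the columns were within 0.0058 of each other on the log2 scale, so the authors had brought the deposited arrays to 1 distribution; how is not given in the sources used here. The submitters' processing notes name GenomeStudio, without a version. Another deposited file has 16 columns that no label assigns to samples, and it was not used, so no detection filter was applied.

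Symbols came from the platform annotation, which gave 1 for 23978 probes, none for 1719 and several for 0. The deposited intensities were corrected by normexp with an offset of 50 and taken to log2. This understates the log2 differences of dim genes beside a smaller offset, but not beside uncorrected values. For Batf3 with IFNγ in FcgKO the log2 difference was 0.43, against 0.61 with an offset of 16 and 0.33 without correction. The 25697 probes were fitted over all arrays, with a mean for each of the 4 groups (limma 3.58.1, R 4.3.3, version 1.17.8 of data.table; 4 residual and 7.05 prior degrees of freedom), with Benjamini-Hochberg adjustment over all probes, and the fit was tested on simulated data. A gene was represented by its probe with the highest mean. A level at or under the array median was taken as a bound only. Promoters are from RefSeq (GRCm38.p6).

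The members, the gene lists and the rule for named genes (all members, list members taken from up to 4 of the largest called differences per list, the 3 genes closest to a member) were chosen with earlier results of these data known. Alternatives were no background correction, an offset of 16, 1 probe per gene, only probes above the median mean, an intensity trend in the prior, the replicate number as a block, and leaving out each array. Whether the replicate numbers pair the samples was checked. Deviations of same-numbered samples correlated with r between -0.04 and 0.29 over 6 pairs of groups, which does not settle the question. The fit reported did not take the numbers as pairs, and with them as a block more probes were called in every comparison.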

Additional observations from a re-analysis of the deposited data

How the results depend on the processing

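Of 560 values of the members under alternatives, 504 kept their direction and their side of the threshold, 32 lost a call, 3 gained one and 21 changed sign, each of these 21 when 1 array was left out. Members called in FcgKO with IFNγ numbered 3 to 6 with 1 array left out, against 6 in the fit reported, and in WT 2 to 5, against 4. For FcgKO against WT the count was 0 to 1 with and without IFNγ, against 1 in each. Without IFNγ it was 0 without background correction and 0 with an offset of 16. With IFNγ it was 0 with an offset of 16, 0 with probes above the median mean only and 0 with an intensity trend in the prior. The cause was not tested. With the replicate number as a block the counts were 6, 4, 1, 1 and 0, and all-probe calls were 2937, 3229, 319, 920 and 33, against 2658, 2963, 186, 667 and 11; the block changed no count of members. Over all alternatives the all-probe calls ranged from 1594 to 2937, 1858 to 3229, 66 to 319, 304 to 920 and 3 to 58.

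Values that changed sign had these lowest and highest log2 differences with 1 array left out. With IFNγ in FcgKO, Junb had -0.094 to 0.45. In WT, Fos had -0.14 to 0.056 and Jund -0.032 to 0.083. FcgKO against WT without IFNγ, Atf3 had -0.26 to 0.11. With IFNγ, Batf had -0.040 to 0.23, Fos -0.083 to 0.095 and Jun -0.013 to 0.43. For the difference of responses, Batf3 had -0.016 to 0.24, Atf3 -0.22 to 0.15, Jun -0.12 to 0.31, Junb -0.45 to 0.094 and Jund -0.043 to 0.072. None of these was called in the fit reported.

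Among the gene lists, counts moved by over 1.5 times in 57 of 420 cases, and 103 of 868 values of listed genes lost a call. Fosb lay at or under the array median on 8 of 8 arrays, and its differences are not given here. Groups of 2 leave the spread to be shared across groups.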
